A study of Mus musculus with 28 samples.

Results

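The genes described here are the 46 protein-coding mouse genes with proteasome symbols (Psma, Psmb, Psmc, Psmd, Psme or Psmf followed by a number), out of 53392 genes named in the quantification files. Membership was set by symbol and gene type, and the set was chosen with earlier results of these data known. A further 4 matching symbols are pseudogenes and were left out. The 46 genes comprise 8 genes of the alpha rings, 7 standard genes of the beta rings, 4 immunoproteasome or thymoproteasome catalytic genes, 6 regulatory-particle ATPases, 11 regulatory-particle non-ATPase subunits, 3 assembly chaperones (Psmd5, Psmd9 and Psmd10), 6 activator or inhibitor genes, and Psmc3ip, which matches the symbol pattern but encodes a recombination cofactor rather than a subunit.

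The study isolated 2 cell populations from the kidneys of male FVB mice after acute kidney injury of the ischemic kind, made by interrupting and restoring the blood supply. Endothelial cells were taken from digested kidney with beads against the surface protein CD31, and proximal tubular cells by microdissection. Injured mice had received a scrambled miRNA (3 libraries per cell type), exosomes (small vesicles released by cells, 3 libraries per cell type) or a synthetic mimic of miR-486-5p (2 libraries per cell type). Poly(A) RNA was sequenced, and the 16 libraries held 8.27 to 25.3 M assigned reads, of which 0.320% to 0.688% fell in the 46 genes. Depth differed with treatment. The mimic libraries held 25.3 and 23.7 M reads in tubular and 14.2 and 24.1 M in endothelial cells, against 8.27 to 13.6 M in all other libraries. Sham mice, with no injury, and untreated injured mice enter only through the authors' deposited comparison tables, and the labels describe both as re-analyses of earlier samples. All groups other than sham share the ischemic injury. The labels name 3 male mice per group; where libraries of a group did not come from separate mice, the p-values below measure only the spread between libraries.

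The proteasome degrades proteins tagged with ubiquitin. Its core particle is a barrel of outer alpha rings, which gate the entrance, and inner beta rings, of which Psmb5, Psmb6 and Psmb7 carry the proteolytic sites. The regulatory particle on the barrel's ends recognises ubiquitin chains, and its Psmc ATPases unfold the substrate. Interferons induce the alternative catalytic subunits Psmb8, Psmb9 and Psmb10, which replace Psmb5, Psmb6 and Psmb7 in newly built immunoproteasomes and favour peptides for MHC class I; Psme1 and Psme2 form the interferon-inducible activator PA28. Standard subunit genes are coordinately induced through antioxidant response elements by Nfe2l1 when proteasome activity is short.

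The promoters of 6 genes that carry the contrast between cell types are printed to set the immunosubunits and Psme1 beside their standard counterparts Psmb5 and Psmb6. Each is 180 bases, from 150 before to 30 after the RefSeq start, on the gene's own strand (RefSeq, build GRCm38.p6). Capitals mark the matches to 3 motifs searched on both strands: TGACNNNGC (antioxidant response element core), GAAANNGAAA (interferon-stimulated response element core) and TTCNNNGAA (gamma-activated site, its own reverse complement). The windows are chr17:34198045-34198224 (plus strand) for Psmb8, chr17:34187301-34187480 (minus) for Psmb9, chr8:105938363-105938542 (minus) for Psmb10, chr14:55578344-55578523 (plus) for Psme1, chr14:54617966-54618145 (minus) for Psmb5 and chr11:70525207-70525386 (plus) for Psmb6.
Psmb8: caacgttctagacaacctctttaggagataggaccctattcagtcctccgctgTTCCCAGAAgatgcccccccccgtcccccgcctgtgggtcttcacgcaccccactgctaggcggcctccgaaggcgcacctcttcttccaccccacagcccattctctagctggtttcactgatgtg
Psmb9: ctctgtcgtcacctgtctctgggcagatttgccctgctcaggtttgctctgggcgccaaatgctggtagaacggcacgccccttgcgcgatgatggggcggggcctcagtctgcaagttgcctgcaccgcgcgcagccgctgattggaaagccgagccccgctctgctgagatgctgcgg
Psmb10: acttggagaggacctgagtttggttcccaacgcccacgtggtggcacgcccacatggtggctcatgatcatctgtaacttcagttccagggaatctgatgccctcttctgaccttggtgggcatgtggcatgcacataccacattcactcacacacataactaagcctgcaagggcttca
Psme1: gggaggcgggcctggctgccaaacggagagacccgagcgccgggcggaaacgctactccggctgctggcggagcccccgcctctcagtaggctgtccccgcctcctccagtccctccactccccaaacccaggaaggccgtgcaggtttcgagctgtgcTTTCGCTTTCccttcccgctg
Psmb5: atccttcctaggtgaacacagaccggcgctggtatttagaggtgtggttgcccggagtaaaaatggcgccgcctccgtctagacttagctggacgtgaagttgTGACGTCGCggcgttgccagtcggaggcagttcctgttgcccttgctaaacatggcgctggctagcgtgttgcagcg
Psmb6: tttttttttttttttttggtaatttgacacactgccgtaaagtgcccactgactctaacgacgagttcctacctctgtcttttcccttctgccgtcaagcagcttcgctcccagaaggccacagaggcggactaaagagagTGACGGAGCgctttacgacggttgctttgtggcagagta

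In these windows Psmb5 and Psmb6 each held an antioxidant response element core, beginning 47 bases and 9 bases before the start. Psmb8 held a gamma-activated site beginning 97 bases before its start, and Psme1 an interferon-stimulated core on the opposite strand, inside the transcribed part. For Psmb8, Psmb9 and Psme1 the printed window lies wholly inside the gene span given below, whose annotated start is further upstream than the RefSeq start used here. No capitals appear for Psmb9 or Psmb10, which says only that these letters are absent from the printed bases. Over the full 300-base windows, available for 39 of the 46 genes, the antioxidant core was found in 6 (15.4%, 95% exact Clopper-Pearson interval 5.86% to 30.5%), against 14.8% of 17491 promoters of protein-coding genes. The interferon-stimulated core was found in 4 of 39 (10.3%, interval 2.87% to 24.2%) against 3.94%, and the gamma-activated site in 2 of 39 (5.13%) against 8.92%. A match is a description of the letters and not evidence of binding.

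Levels were compared between genes as CPM (reads scaled to the normalized library total) per kilobase of the longest protein-coding transcript. Over the 31 core and regulatory-particle genes with a fixed place in the standard particle, the mean level in tubular libraries ran from 38.4 (Psma3) to 256.6 CPM per kb (Psmb6), a ratio of 6.67, with a median of 90.5. In endothelial libraries the same genes ran from 20.4 (Psma3) to 142.1 (Psmb4), a ratio of 6.98, with a median of 59.3. On this scale the highest were Psmb6, Psmb4 (248.7) and Psmb5 (227.3) in tubular cells, and Psmb4, Psmb6 (136.4) and Psmb5 (107.1) in endothelial cells. The order depended on the length divisor. By the deposited TPM, which divides each transcript's reads by its own length, the highest of the 31 were Psma7 (503.2 TPM), Psma4 (395.8) and Psmb4 (387.3) in tubular cells and Psma7 (308.6), Psmb4 (264.3) and Psma4 (201.2) in endothelial cells, while Psmb6 ranked 7 and 8 and Psmb5 11 and 12. Psma3, the lowest per kilobase, ranked 4 in tubular and 6 in endothelial cells by TPM: its divisor is a transcript of 2846 bases that held 0.831% of its TPM, and a transcript of 312 bases held 50.4%. Psmb11, the thymus-specific catalytic subunit, reached at most 0.900 CPM and Psma8, the testis-specific alpha subunit, at most 0.276 CPM in any library, and neither passed the filter on low counts. These levels depend on read assignment to transcripts: for Psmb4, Psmb10 and Psme2 a median of only 14.4%, 14.1% and 0.951% of the gene's TPM lay in its protein-coding transcripts.

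The main contrast was between cell types. Endothelial libraries held more of the immunoproteasome subunits and Psme1, and less of nearly all standard subunits, than tubular libraries after the same treatments. Of 44 genes tested with edgeR's quasi-likelihood test, 5 were higher in endothelial cells (36.3% of all 17143 genes tested were called higher) and 36 were lower (29.9% of all genes); DESeq2 called the same numbers (36.9% and 30.8% of all genes). The median log2 difference of the 44 genes was -0.70, against 0.06 over all genes tested. By role, 7 of 7 tested alpha-ring genes were lower (median -0.89), as were 7 of 7 standard beta-ring genes (-0.86), 6 of 6 ATPases (-0.64), 11 of 11 non-ATPase subunits (-0.66) and 3 of 3 chaperones (-0.65). The 3 tested immunosubunits were all higher, with a median of 1.68. Because these are bulk samples, fewer cells of a type and less RNA per cell cannot be told apart.

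**Figure D1:**
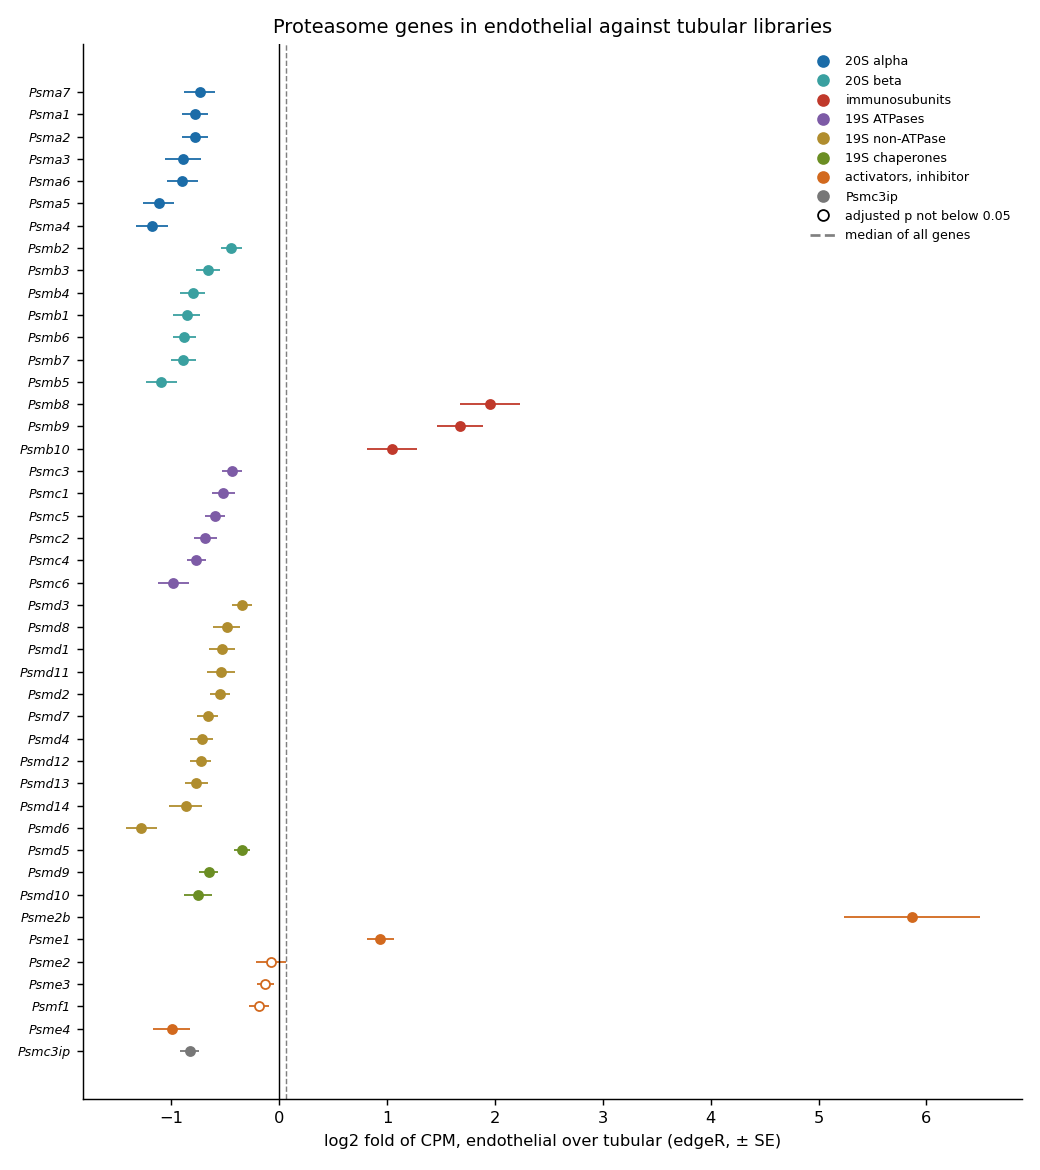
Log2 difference between endothelial and tubular cells for the 44 tested genes (x axis, endothelial over tubular, with its standard error), 1 row per gene, grouped by role; filled points passed adjusted p below 0.05. The immunosubunits, Psme1 and Psme2b lie right of 0, the standard subunits left of it, and Psmf1, Psme3 and Psme2 lie near 0 with open points.

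Psmb8 (chr17:34197721-34201454) encodes the immunoproteasome's chymotrypsin-like subunit and replaces Psmb5. It stood at 26.6 to 45.5 CPM in the 8 endothelial libraries (median 37.4) and at 3.44 to 29.3 CPM in the 8 tubular libraries (median 8.88). The groups overlapped only through tubular scrambled library 2, at 29.3 CPM, which was also the tubular library with the most neutrophil marker RNA (30.8 TPM over 6 genes). Macrophage marker RNA was instead highest in tubular scrambled library 3, at 64.9 TPM against 47.4 TPM in library 2, and Psmb8 there was 10.2 CPM. The part of such cells in the Psmb8 values was not tested. The Psmb8 difference between cell types was 1.96 on the log2 scale (SE 0.28, edgeR adjusted p = 2.47e-05), or 3.88-fold. Its counterpart Psmb5 (chr14:54614119-54618022) went the other way, at 76.4 to 121 CPM in endothelial and 148 to 308 CPM in tubular libraries, with no overlap and a log2 difference of -1.09 (SE 0.14, edgeR adjusted p = 1.01e-05).

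Psmb9 (chr17:34181987-34187764), the neighbour of Psmb8 in the MHC class II region, replaces Psmb6. Endothelial libraries held 9.99 to 18.8 CPM (median 13.5) and tubular libraries 1.70 to 9.54 CPM (median 4.93), without overlap, and the difference was 1.68 (SE 0.21, edgeR adjusted p = 8.65e-06). Psmb6 (chr11:70525367-70527858) stood at 96.1 to 130 CPM in endothelial and 141 to 245 CPM in tubular libraries, again without overlap (log2 -0.88). Psmb10 (chr8:105935735-105938444), which replaces Psmb7, had the smallest contrast of the 3, at 19.3 to 34.5 CPM (median 27.1) in endothelial and 5.97 to 37.1 CPM (median 14.8) in tubular libraries. Its groups overlapped, and tubular scrambled library 3, at 37.1 CPM, exceeded every endothelial library; the difference was 1.04 (SE 0.23, edgeR adjusted p = 0.00103). Psmb7 (chr2:38588036-38644087) stood at 98.4 to 158 CPM in endothelial and 176 to 264 CPM in tubular libraries (log2 -0.89).

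**Figure D2:**
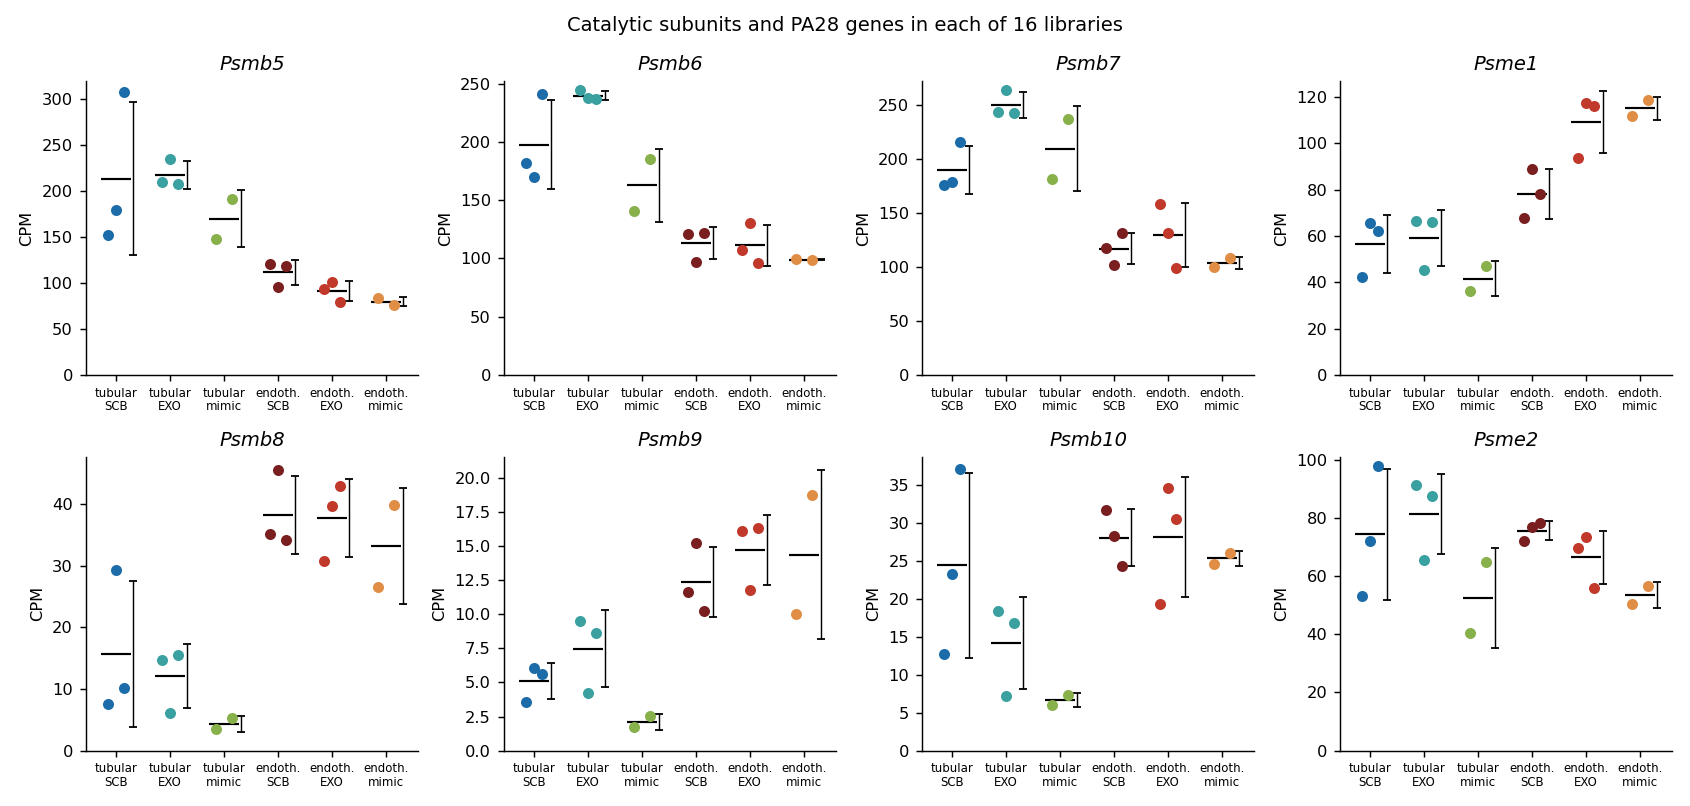
CPM in each library (y axis) of the 3 standard catalytic subunits, the immunosubunit that replaces each, and Psme1 and Psme2, by cell type and treatment (x axis); points are libraries, the horizontal line is the group mean and the bar beside it 1 SD. Psmb5, Psmb6 and Psmb7 are higher in every tubular than in any endothelial library, and Psmb8 to Psmb10 mostly the reverse.

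The share of the 6 catalytic genes' summed level (CPM per kb) that came from immunosubunits put these pairs on 1 scale. It was 13.6% ± 2.60 (SD, n = 8) in endothelial libraries, with a range of 10.6% to 17.3%, and 3.30% ± 1.77 (SD, n = 8) in tubular libraries, with a range of 1.54% to 6.63%. No library of one cell type reached the range of the other. Summed from the deposited TPM instead, the shares were 22.6% and 5.83%.

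Among the activators, Psme1 (chr14:55578123-55581529) was higher in endothelial cells while its partner Psme2 was not called. Psme1 stood at 67.5 to 119 CPM (median 102.5) in endothelial and 36.2 to 66.2 CPM (median 54.5) in tubular libraries, without overlap, a difference of 0.94 (SE 0.13, edgeR adjusted p = 1.35e-05). Psme2 (chr14:55587441-55591113) stood at 50.5 to 78.1 CPM in endothelial and 40.3 to 97.9 CPM in tubular libraries, with a difference of -0.08 (SE 0.14). A median of only 0.951% of the TPM of Psme2 lay in its protein-coding transcripts, which limits what its values say about the coding RNA. Psme3, which forms the nuclear PA28 activator, differed by -0.13 and Psmf1, a regulator that inhibits the core particle in the test tube, by -0.19, and neither was called. Psme4, the nuclear activator PA200, stood at 58.0 to 153 CPM in endothelial and 145 to 219 CPM in tubular libraries and was called lower (edgeR adjusted p = 0.000131). Psme2b, an intronless copy of Psme2 on chr11:48945354-48946190, had 15.4 to 36.4 estimated reads in every endothelial library and 0 to 2.15 in tubular libraries; its reads can be confused with those of Psme2, so its call is uncertain.

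The largest decreases in endothelial cells were in Psmd6, Psma4 and Psma5. Psmd6, a lid subunit of the regulatory particle, stood at 39.9 to 82.4 CPM (endothelial) against 116 to 156 CPM (tubular), with a log2 difference of -1.28 (SE 0.14, edgeR adjusted p = 2.42e-06). Psma4 stood at 78.4 to 170 CPM against 173 to 279 CPM, a difference of -1.18 (SE 0.15), and Psma5 at 39.3 to 66.0 CPM against 66.5 to 161 CPM, a difference of -1.12 (SE 0.14). In none of these 3 genes did the cell types overlap. Counted over all members, libraries of the cell types did not overlap for 3 genes higher in endothelial cells (17.9% of all genes) and 19 lower (9.51% of all genes).

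Genes that work with the proteasome were read against the same shares of all genes, 36.3% called higher and 29.9% lower. Of 7 assembly factors and other subunits tested, 6 were lower in endothelial cells, among them the assembly chaperone Psmg1 (-1.08, SE 0.11) and the ubiquitin receptor Adrm1 (-0.83, SE 0.09). Of 17 regulators and shuttle factors, 8 were lower and 4 higher (median -0.21), and the 4 included Nfe2l1 (1.83, SE 0.13) and Nfe2l2 (1.29, SE 0.11), which encode transcription factors acting on antioxidant response elements. Of 7 ubiquitin and E1 genes, 4 were lower and 2 higher, with a median of -0.32. Of 14 class I presentation genes, 9 were higher. They included Irf1, an interferon-response transcription factor, at 3.35 (SE 0.31), the peptide transporter gene Tap1 at 2.20 (SE 0.27) and Tap2 at 0.90 (SE 0.12). Of the same list, 2 endoplasmic reticulum chaperone genes, Calr and Pdia3, were lower. These 2 calls were lost with the replicate block (edgeR adjusted p = 0.0508 and 0.0536), and losses also occurred in other settings.

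Markers of other cells moved with this contrast. All 8 macrophage markers were higher in endothelial libraries (summed TPM 75.4 to 240, against 6.44 to 64.9 in tubular libraries), as were all 8 lymphocyte markers (5.05 to 16.1 against 0 to 0.835) and 4 of 5 tested neutrophil markers (9.01 to 60.6 against 0.134 to 30.8), while the neutrophil gene Mpo was at 0 in all 8 endothelial libraries. The 10 endothelial markers identified their preparation (345 to 672 against 26.1 to 60.0 TPM), but endothelial libraries also held more thick ascending limb RNA (3607 to 13842 against 120 to 499 TPM) and retained proximal tubule RNA (1525 to 14385 against 13289 to 41462 TPM). All 4 podocyte markers were higher too (169 to 297 against 1.22 to 25.1 TPM). Of 5 tested fibroblast and pericyte markers, 2 were higher and 1 lower. Leukocytes express immunosubunits and Psme1, and the part of these other cells in the differences above was not tested.

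Within tubular cells, the exosome group was compared with the scrambled group. No member was called by edgeR (2.72% of all genes were called higher and 2.41% lower) or by DESeq2 (6.19% and 6.0% of all genes), and 5 members were higher and 2 lower at an unadjusted p below 0.05 (12.3% and 12.5% of all genes). Libraries did not overlap for 7 members higher and 2 lower (16.0% and 14.7% of all genes). The fitted difference was above 0 for 32 of 43 tested members (48.8% of all genes), with a median of 0.18. All 7 alpha-ring genes lay above 0 (median 0.47) and all 7 standard beta-ring genes (median 0.28). The summed alpha-ring level was 1329, 1465 and 1493 CPM in the exosome libraries and 762, 963 and 1397 CPM in the scrambled libraries. Scrambled library 3 thus lay within the exosome range while the other 2 lay below it. Without that library, 9 members were called higher (5.13% of all genes), namely Psma1 to Psma7, Psmb1 and Psmc6, and 1 lower, Psme4 (3.61% of all genes). Of the 8 fits that each left out 1 library, this was the only 1 with a call. Leaving out scrambled library 1 instead gave a median of 0.04, with 26 of 43 members above 0 and 0 called.

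Psma3 had the largest positive value. It stood at 123, 151 and 156 CPM in the exosome libraries and 64.2, 76.0 and 136 CPM in the scrambled libraries, a log2 difference of 0.64 (SE 0.26, edgeR adjusted p = 0.169), with overlap through scrambled library 3. Psmb10 had the largest negative value, at 18.4, 7.21 and 16.8 CPM with exosomes against 12.8, 23.2 and 37.1 CPM with scrambled miRNA, a difference of -0.78 (SE 0.42, edgeR adjusted p = 0.281). Among the regulators, Nfe2l1 was lower with exosomes (-0.59, SE 0.13, edgeR adjusted p = 0.0411), the only one of the 17 genes called. That call was lost when any 1 exosome library was left out (edgeR adjusted p = 0.1, 0.176 and 0.143 without libraries 1, 2 and 3), without scrambled library 2 (0.0878), without either mimic library (0.0548 and 0.0562), with only these groups fitted (0.0546), with a length offset (0.21) and with the replicate block (0.0616).

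Markers of other cells moved with the tubular exosome comparison. Macrophage marker RNA summed to 21.9, 13.1 and 10.5 TPM with exosomes and 25.5, 47.4 and 64.9 TPM with scrambled miRNA, without overlap, and 1 of 8 macrophage markers was called lower. Neutrophil markers, 4 of 6 tested, had a median difference of -2.11 and none was called. Proximal tubule markers summed to 31228, 39353 and 28521 TPM with exosomes and 17480, 20183 and 13289 TPM with scrambled miRNA, also without overlap, with 1 of 10 called higher. Most of each sum was Kap alone, at 28983, 37008 and 26702 TPM against 13662, 18271 and 12530 TPM. Every other marker of that list overlapped between the groups, such as Slc34a1 at 926, 1001 and 818 TPM against 1611, 765 and 241 TPM. The part of all these markers in the members' values was not tested.

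**Figure D3:**
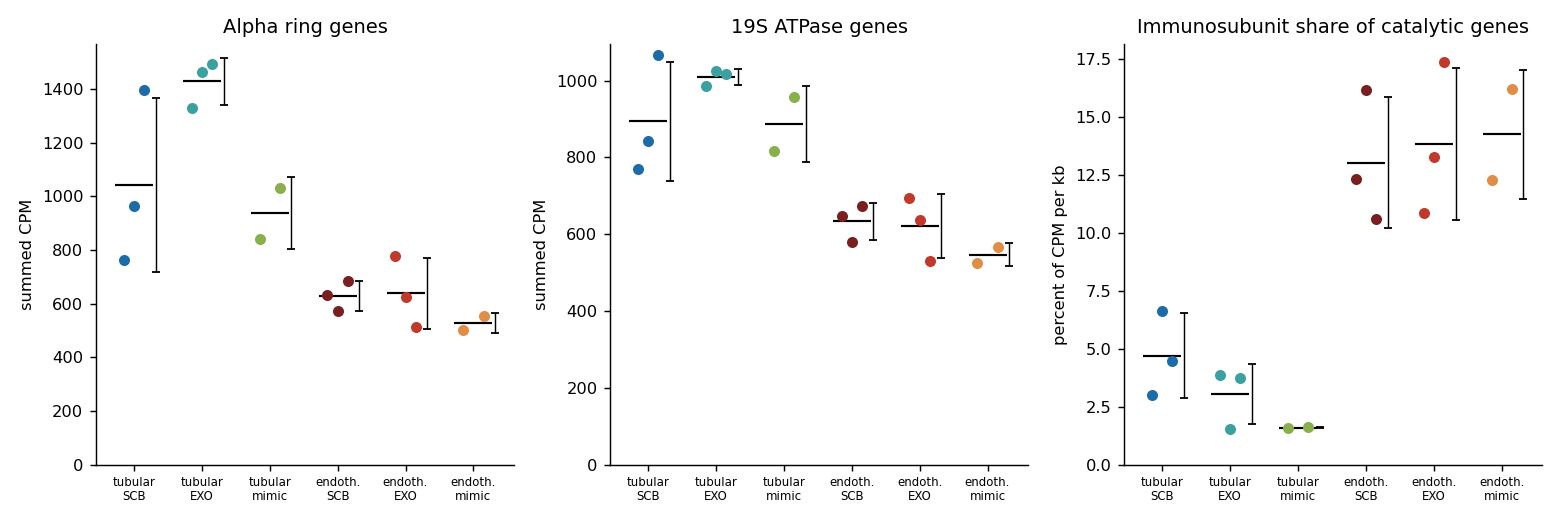
Summed CPM of the alpha-ring genes and of the ATPase genes, and the immunosubunits' percentage of the catalytic genes' level in CPM per kb (y axes of the 3 panels), in each library by cell type and treatment (x axis); points are libraries, lines are group means and bars 1 SD. Tubular scrambled library 3 has an alpha-ring sum of 1397 CPM, beside the 3 exosome libraries at 1329 to 1493 CPM, while the mimic libraries lie at 842 and 1032 CPM.

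The mimic group was then compared with the scrambled group in tubular cells, where the immunosubunits had the most negative values. Psmb8 stood at 3.44 and 5.28 CPM in the mimic libraries against 7.54, 29.3 and 10.2 CPM in the scrambled libraries. Psmb9 stood at 1.70 and 2.52 CPM against 3.58, 6.06 and 5.63 CPM, and Psmb10 at 5.97 and 7.26 CPM against 12.8, 23.2 and 37.1 CPM. In all 3 genes every mimic library lay below every scrambled library. The fitted differences were -1.85 (SE 0.62), -1.27 (SE 0.44) and -1.88 (SE 0.49), with edgeR adjusted p of 0.203, 0.21 and 0.152, so none was called, whereas DESeq2 called Psmb8 and Psmb10 lower and no member higher (3.17% and 2.02% of all genes).

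Over all members in that comparison, edgeR called 0 (0.0134% of all genes were called higher and 0.00671% lower) and 3 were lower and 0 higher at an unadjusted p below 0.05 (8.93% and 7.34% of all genes). The groups did not overlap for 4 members lower (15.9% of all genes) and 1 higher (15.5%). The largest positive value was that of Psmf1, at 35.1 and 36.7 CPM with the mimic against 30.5, 26.8 and 30.8 CPM, a difference of 0.29 (SE 0.14, edgeR adjusted p = 0.343). Standard subunits stayed near 0, with medians of -0.12 for the alpha ring, -0.10 for the standard beta ring and 0.01 for the ATPases. Neutrophil markers had a median difference of -3.93 and macrophage markers of -1.20 in the same comparison. Macrophage marker RNA summed to 12.0 and 6.44 TPM in the mimic libraries and 25.5, 47.4 and 64.9 TPM in the scrambled libraries; its part in the immunosubunit values was not tested.

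Set against the exosome group, the tubular mimic libraries were lower in most members. The difference was below 0 in 37 of 43 members (52.1% of all genes), with a median of -0.27, and all 7 alpha-ring (median -0.71) and all 7 standard beta-ring genes (median -0.35) were among them. EdgeR called no member (0.0% of all genes in either direction); 11 were lower and 3 higher at an unadjusted p below 0.05 (7.25% and 5.14% of all genes), and DESeq2 called Psmb9 lower and none higher (0.906% and 0.235% of all genes). Psmb9 had the most negative value, at 1.70 and 2.52 CPM with the mimic and 9.54, 4.24 and 8.60 CPM with exosomes (-1.82, SE 0.44, edgeR adjusted p = 0.311). Psme4 had the most positive, at 219 and 201 CPM against 145, 154 and 150 CPM (0.49, SE 0.16, edgeR adjusted p = 0.321). Both genes separated the groups without overlap, as did 26 members lower and 4 higher in all (20.5% and 20.2% of all genes).

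In endothelial cells edgeR called no member between treatments, and DESeq2 called Psmd11 and Psme2b lower with the mimic than with scrambled miRNA. Psme1 was not called, but its libraries did not overlap. It stood at 67.5, 88.8 and 78.1 CPM with scrambled miRNA, at 93.5, 117 and 116 CPM with exosomes and at 112 and 119 CPM with the mimic. Every exosome and mimic library lay above every scrambled library. The differences from scrambled were 0.50 for exosomes (SE 0.16, edgeR adjusted p = 0.284) and 0.56 for the mimic (SE 0.18, edgeR adjusted p = 0.141), and neither was called. Its partner Psme2 did not share the pattern, at 71.9, 76.8 and 78.1 CPM with scrambled miRNA, 69.8, 73.5 and 55.9 CPM with exosomes and 50.5 and 56.6 CPM with the mimic. Little of the TPM of Psme2 lay in protein-coding transcripts, as given above.

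EdgeR called 0 members in the endothelial exosome comparison (0.0% of all genes in either direction), as did DESeq2 (1.76% higher and 0.767% lower); 1 was higher and 1 lower at an unadjusted p below 0.05 (7.22% and 4.18% of all genes). Libraries did not overlap for 1 member higher and 4 lower (8.57% and 6.61% of all genes). Exosome library 1 stood apart in proximal tubule marker RNA, at 14385 TPM against 2399 and 1525 TPM in exosome libraries 2 and 3; without it the members' median moved from -0.03 to -0.11 and still 0 members were called. Without exosome library 3 the median was 0.01. The member lower at an unadjusted p below 0.05 was Psmd11, a lid subunit whose product stabilises the link between core and regulatory particle. Psmd11 stood at 84.2 CPM in exosome library 1, at 78.7 and 59.4 CPM in the other exosome libraries and 98.0, 101 and 102 CPM with scrambled miRNA (-0.42, SE 0.16, edgeR adjusted p = 0.376). With the mimic it stood at 61.2 and 58.0 CPM, below every scrambled library (-0.75, SE 0.19, edgeR adjusted p = 0.0845).

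For the endothelial mimic against scrambled miRNA, 40 of 44 members had values below 0 (49.6% of all genes), with a median of -0.20. EdgeR called 0 (0.0% of all genes in either direction), 10 were lower and 1 higher at an unadjusted p below 0.05 (8.92% and 10.5% of all genes), and DESeq2 called Psmd11 and Psme2b lower and none higher (3.95% and 4.37% of all genes). Libraries did not overlap for 25 members lower and 2 higher (22.2% and 23.1% of all genes). The most negative value was that of Psme2b, at 0.985 and 0.715 CPM against 2.67, 3.32 and 2.75 CPM (-1.77, SE 0.43, edgeR adjusted p = 0.0841), with the uncertainty of a copied gene. Proximal tubule markers, 10 genes, summed to 2011 and 1719 TPM in the mimic libraries and 8560, 4027 and 4629 TPM in the scrambled libraries. Thick ascending limb markers, 5 genes, went the other way, at 12471 and 13842 TPM against 3607, 8263 and 5603 TPM. The median log2 differences of the 2 lists were -1.78 and 1.72. The part of either list in the members' values was not tested.

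Between endothelial mimic and exosome libraries, edgeR called 0 members (0.0% of all genes in either direction), DESeq2 called 0 (0.00614% higher and 0.0245% lower), and 1 was lower and 0 higher at an unadjusted p below 0.05 (3.13% and 0.925% of all genes). Libraries did not overlap for 6 members lower and 0 higher (9.33% and 11.2% of all genes). The difference was below 0 in 42 of 44 members (51.0% of all genes), with a median of -0.19, against -0.01 over all genes tested. Proximal tubule markers had a median difference of -1.99 in the same comparison, with sums of 2011 and 1719 TPM against 14385, 2399 and 1525 TPM; without exosome library 1 the members' median was -0.14, with 6 of 44 above 0 in place of 2. Thick ascending limb markers went the other way, with a median difference of 0.56. The part of both marker lists in the members' values was not tested. The most negative value was that of Psme2b (-1.60, SE 0.43, edgeR adjusted p = 0.988), and the most positive that of Psme1, 0.06.

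**Figure D4:**
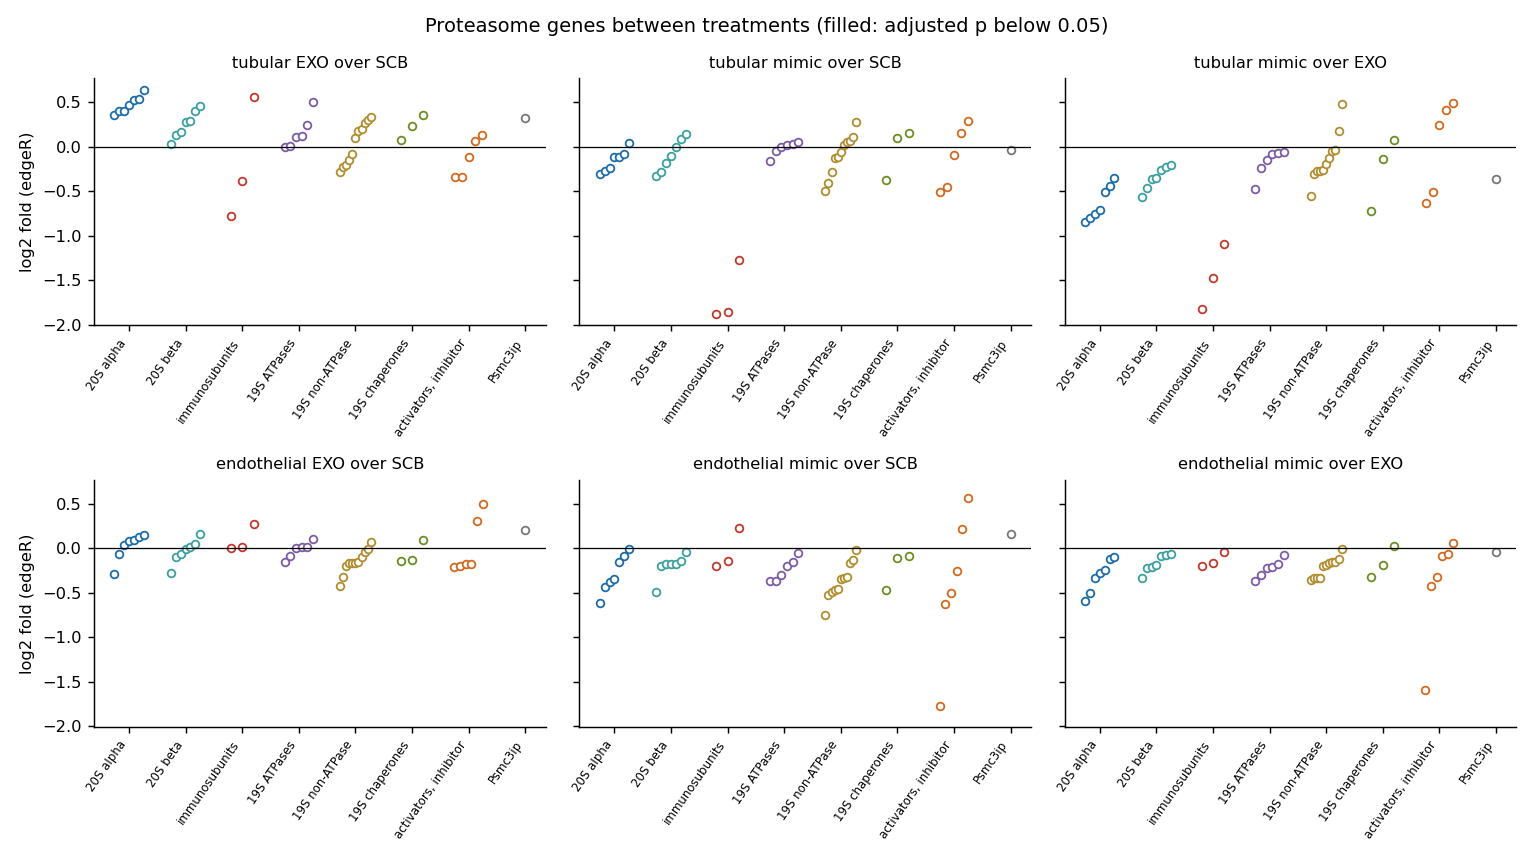
Log2 difference of each tested member (y axis) in the 6 treatment comparisons within a cell type (x axis, by role); the differences are edgeR's, and all circles are open because no member passed edgeR's adjusted p below 0.05. Tubular immunosubunits reach -1.88 in mimic against scrambled miRNA, and endothelial Psme1 lies at 0.50 and 0.56 against scrambled miRNA.

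Whether a treatment difference itself differed between cell types was tested as an interaction over all 16 libraries. EdgeR called 0 members for exosomes and 0 for the mimic (0.0% of all genes in each direction in both tests), and DESeq2 also called 0 for exosomes (0.0935% and 0.105% of all genes) and 0 for the mimic (1.57% higher and 1.78% lower). Each interaction value is the signed tubular difference minus the signed endothelial one, so a value above 0 can also mean a smaller decrease in tubular cells. For exosomes, 2 members had a value above 0 at an unadjusted p below 0.05 and 0 a value below 0 (2.71% and 5.07% of all genes). The members' median was 0.24, with 36 of 44 above 0 (47.1% of all genes). For the mimic, 34 of 44 members had a value above 0 (45.6% of all genes), with a median of 0.19 against -0.07 over all genes tested. The members' median difference of mimic from scrambled miRNA was -0.09 in tubular and -0.20 in endothelial cells, so the decrease was smaller in tubular cells. With the replicate block the count above 0 was 24 of 44 and the median 0.05. By the test, 4 members had a value below 0 at an unadjusted p below 0.05 (8.57% of all genes) and 1 a value above 0 (6.88%). Psmb10 (-1.73, SE 0.58, edgeR adjusted p = 0.191), Psmb8 (-1.64), Psmb9 (-1.49) and Psme1 (SE 0.32, edgeR adjusted p = 0.172) had the most negative values, and Psme2b the most positive in both tests (3.11 and 4.34), resting on its few tubular reads.

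The authors' deposited tables add sham and untreated injured mice. Their log2 folds, standard errors and adjusted p-values are quoted as deposited. Each cell type's 6 tables reuse the same injured and sham libraries, so the tables are not independent of each other. Their treated groups are those compared above, so the tables are not independent of those comparisons either. Except in the comparison of untreated injury with sham, treated libraries are set against re-analysed earlier ones, and a difference between the earlier and later libraries and a treatment effect cannot be told apart. In tubular cells, the authors' deposited table of untreated injury over sham called 2 of 44 members higher (11.5% of all genes) and 0 lower (8.65%). They were the lid subunits Psmd8 (chr7:29174188-29180701), at 1.34 on the log2 scale (SE 0.34, adjusted p = 0.000353), and Psmd11 (chr11:80428615-80473248), at 0.72 (SE 0.30, adjusted p = 0.0301). The median over the members in that authors' deposited table was 0.21, with 38 of 44 above 0 (51.0% of all genes).

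Tubular cells of exosome-treated mice had the most members called. The authors' deposited table of that group over sham called 13 of 43 higher (6.24% of all genes) and 1 lower (4.96%), with a median of 0.39. The 13 comprised 5 of 7 alpha-ring genes, 4 of 7 standard beta-ring genes, the ATPase Psmc3, the chaperone Psmd10, Psme2 and Psmc3ip. The smallest adjusted p in the authors' deposited table belonged to Psmb6 (0.83, SE 0.19, adjusted p = 0.000195), Psma7 (1.05, SE 0.26, adjusted p = 0.000349) and Psmd10 (0.95, SE 0.28, adjusted p = 0.00198). Psmd3, a lid subunit, was the 1 gene lower (-0.47, SE 0.14, adjusted p = 0.00619 in the authors' deposited table). No immunosubunit was called there, and the assembly factors Pomp, Psmg4 and Sem1 were 3 of 7 called higher in the list of assembly genes.

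Set against untreated injury, exosome-treated tubular cells had 9 members higher and 3 lower. In the authors' deposited table, which gives untreated injury over exosomes, 9 of 45 members had negative called folds (13.3% of all genes) and 3 positive ones (17.6%). Negative folds included Psmc3ip (-1.01, SE 0.21, adjusted p = 9.92e-06), Psmb6 (-0.67, SE 0.19, adjusted p = 0.00129) and Psma5 (-0.81, SE 0.28, adjusted p = 0.00758) in the authors' deposited table. Positive folds were those of Psmd3 (0.54), Psmf1 (0.66) and Psmd8 (1.06, SE 0.33, adjusted p = 0.00269) in the same authors' deposited table. Of 17 regulators and shuttles, 9 were higher in untreated injury and 1 lower, with Nfe2l2 at 3.03 (SE 0.51), Zfand5, a proteasome-activating zinc finger protein, at 2.52 (SE 0.57) and Nfe2l1 at 1.12 (SE 0.27) in the authors' deposited table.

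For the other tubular groups fewer members were called. The authors' deposited table of untreated injury over scrambled miRNA called 3 members higher (11.1% of all genes) and 1 lower (6.75%), with Psmd8 at 0.81 (SE 0.34, adjusted p = 0.0263), Psmf1 at 0.52, Psmd3 at 0.36 and Psmc3ip at -0.52. That of untreated injury over the mimic called 2 higher (14.1%) and 1 lower (8.78%): Psmd8 at 1.25 (SE 0.38, adjusted p = 0.00228), Psmb10 at 1.49 (SE 0.56, adjusted p = 0.00733) and Psmc3ip at -0.63, per the authors' deposited table. Psmd8 was thus called higher in untreated injury in every tubular table of that group, against sham, scrambled miRNA, exosomes and the mimic, 4 comparisons that share the same injured libraries. The authors' deposited table of the tubular mimic over sham called 0 (0.0448% of all genes higher and 0.986% lower), and its folds are strongly shrunken, from -0.05 to 0.21 over the members.

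In endothelial cells the authors' deposited table of untreated injury over sham called 0 of 45 members (3.3% of all genes higher and 1.11% lower). Psme1 was called with both treatments, in the same treated groups as in the library comparisons above. In the authors' deposited tables it was higher over sham with exosomes (0.68, SE 0.16, adjusted p = 0.000752) and with the mimic (0.73, SE 0.18, adjusted p = 0.000501), while untreated injury over sham gave 0.12 (adjusted p = 0.699). Untreated injury over exosomes gave -0.51 (adjusted p = 0.0159), over the mimic -0.57 (adjusted p = 0.00919) and over scrambled miRNA 0.03 (adjusted p = 0.931) in the authors' deposited tables. In counts, exosomes over sham called 2 members higher (3.35% of all genes) and 0 lower (3.37%), the other being Psmb10 (0.80, SE 0.26, adjusted p = 0.00985 in the authors' deposited table). The mimic over sham called 1 higher (3.93%) and 1 lower (7.63%), the lower being Psma5 (-0.74, adjusted p = 0.0401), with 41 of 45 members below 0 (48.5% of all genes) and a median of -0.40.

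Among the endothelial tables of untreated injury over each treatment, most calls were in that for the mimic, mainly in regulatory-particle genes. The authors' deposited table of untreated injury over the mimic called 7 members higher (6.46% of all genes) and 1 lower (3.78%), the 1 being Psme1. Of the 7, 5 are non-ATPase subunits, namely Psmd11 (1.18, SE 0.32, adjusted p = 0.00156), Psmd1 (0.83, SE 0.25, adjusted p = 0.00609), Psmd8, Psmd12 and the deubiquitinase Psmd14, and the others are Psma5 and Psmc6. Untreated injury over exosomes called Psmd11 higher (0.98, SE 0.29, adjusted p = 0.00709 in the authors' deposited table; 1.83% of all genes higher) and Psme1 lower (1.95% of all genes). Untreated injury over scrambled miRNA called 0 (0.344% higher and 0.413% lower).

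**Figure D5:**
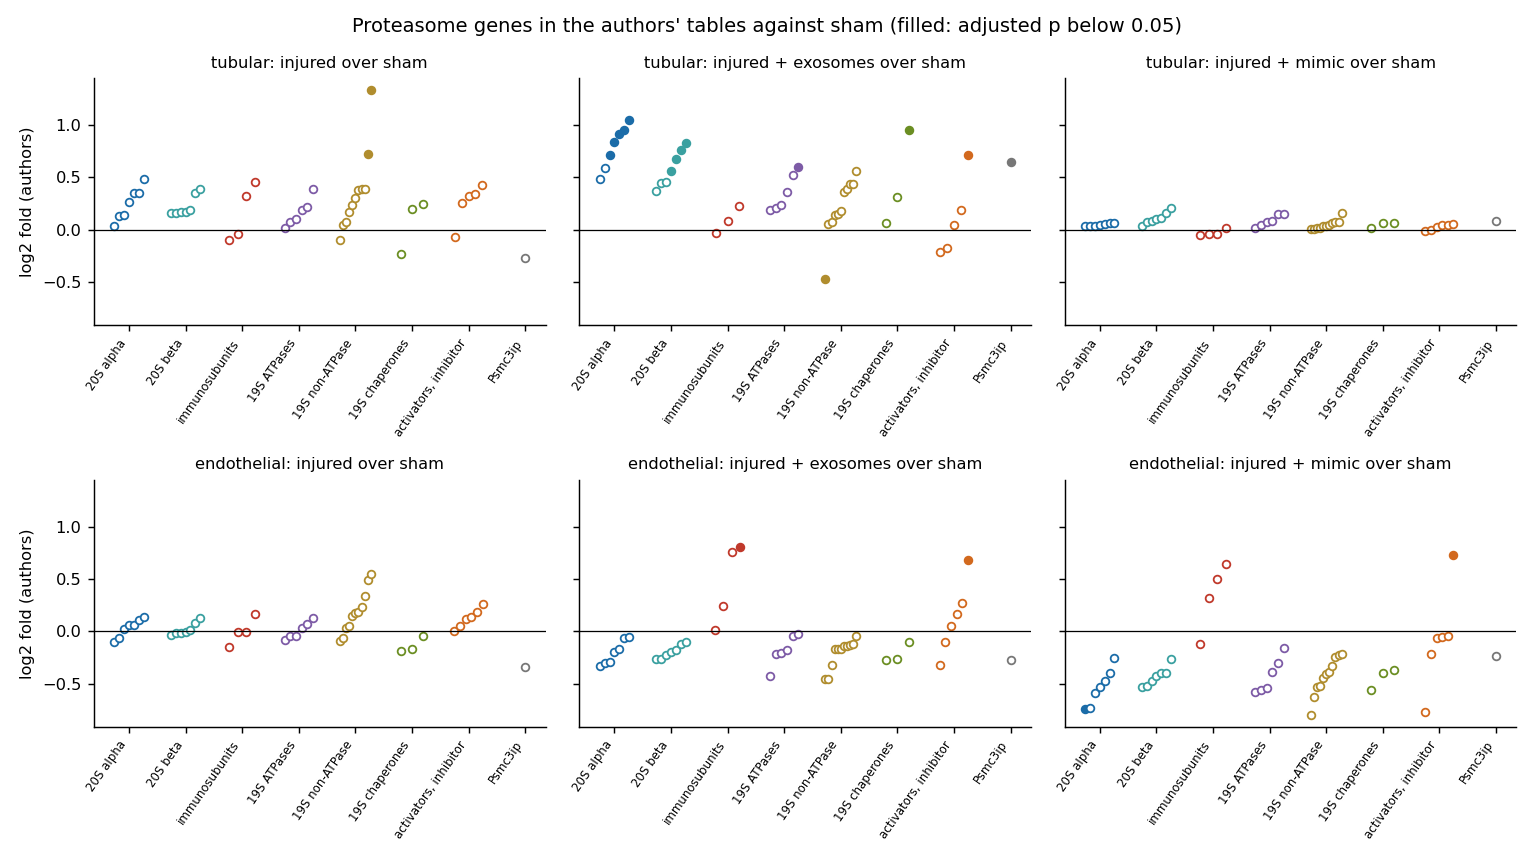
Log2 folds of the members (y axis) in the authors' deposited tables against sham, by role (x axis), with 1 panel per cell type and group; filled points have an adjusted p below 0.05, and only members with an adjusted p are drawn. Tubular alpha-ring and standard beta-ring genes lie above 0 with exosomes, and endothelial Psme1 lies at 0.68 with exosomes and 0.73 with the mimic.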

How the data were processed

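RNA-seq was analysed for 16 mouse kidney libraries (2 cell types, 3 treatments of injured mice). Per the submitters' processing notes, the authors quantified reads with Salmon 0.13.1 on GRCm38 and made comparison tables with DESeq2. The deposited Salmon files hold estimated counts, TPM and effective transcript lengths for 136202 transcripts; the 12 deposited tables hold, per the file headers, base mean (a normalized count, used as a signal level), log2 fold, its standard error, p-value and adjusted p-value. The base mean of each gene is identical across a cell type's tables, and the authors' folds appear shrunken: in the tubular mimic table the fold was typically 0.0734 standard errors in size (median over genes), against 0.644 by the p-values.

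Estimated counts were summed per gene, rounded and tested with edgeR 4.0.16 (R 4.3.3; quasi-likelihood F test, TMM, filterByExpr with minimum count 10 and minimum total 15), adjusted by Benjamini-Hochberg over all genes and called at 0.05. Each cell type was fitted alone (14913 tubular and 16316 endothelial genes); cell types and interactions were fitted over 17143 genes. Psma8 and Psmb11 failed the filter everywhere and Psme2b in tubular cells. CPM used TMM over the 16 libraries. Standard deviations are between libraries, and Clopper-Pearson intervals cover counting error only. The script was tested on simulated data.

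The members and gene lists were chosen with earlier results of these data known. Values per library are given for the catalytic pairs, Psme1 and Psme2, and for members called or, where none was, those with the largest positive and negative fold; from the authors' tables, up to 3 per direction by adjusted p, and every called member where few. Alternatives were DESeq2 1.42.0, its size factors, no low-count filter, a length offset, 2-group fits, a replicate block and leaving out each library. No column was left unmapped.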

Additional observations from a re-analysis of the deposited data

How the results depend on the processing

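In endothelial against tubular cells, 41 members were called (5 higher, 36 lower), with 41 under DESeq2, 40 without the low-count filter, 39 with a length offset and 41 to 43 when each library was left out. Within-cell calls are less stable. For tubular exosomes against scrambled miRNA, 0 became 2 without the low-count filter (Psma3 higher, Psmb10 lower) and 0 to 10 over the left-out libraries, the 10 without tubular scrambled replicate 3. For the tubular mimic against scrambled miRNA, 0 became 2 with DESeq2, 2 without the filter (Psmb8 and Psmb10 in both) and 0 to 1 over the left-out libraries, the 1 (Psmb10) without scrambled replicate 1. The median over the members changed sign there, from -0.09 to 0.11 without scrambled replicate 3, 0.05 without mimic replicate 1 and 0.01 with the replicate block. For the tubular mimic against exosomes, 0 became 1 with DESeq2, 5 without the filter and 2 (Psma5 and Psma6) when only these groups were fitted, and stayed at 0 over the left-out libraries. For the endothelial mimic against scrambled miRNA, 0 became 2 with DESeq2, 1 without the filter, 2 (Psma5 and Psmd11) with only these groups, and 0 to 2 over the left-out libraries, 2 without exosome replicate 1 and 1 (Psmd11) without exosome replicate 3. The mimic interaction gave 2 without the filter. The endothelial exosome comparison, the endothelial mimic against exosomes and both interactions stayed at 0 over the left-out libraries. The cause of these moves was not tested.

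With the replicate block, 0 members were called in the 6 within-cell comparisons and both interactions, and 41 between cell types. Deviations from group means were correlated between same-numbered libraries. Over the 7 pairs of both cell types with the same library number, r was -0.108 to 0.0881. Over the 14 pairs within a cell type with the same replicate number, r was -0.0483 to 0.228, with 2 pairs over 0.1. These values cannot exclude that libraries came from the same mouse. The labels do not say that the numbers mark a mouse, so the main fits used no pairs. At an adjusted p below 0.01 the authors' tables called 24 members in place of 49. By TPM the immunosubunit share was 22.6% in endothelial and 5.83% in tubular libraries. The members' median for endothelial exosomes against scrambled miRNA changed from -0.03 to 0.01 without exosome replicate 3. Of 1415 further checks, on single genes, single tables of the authors and promoter shares, 1331 stayed the same, 54 moved, 15 passed the threshold and 15 fell short of it (Nfe2l1, Calr and Pdia3). The sign changed in 47 of 1400 checks of single genes, 0 of them called in either setting. Over all genes, DESeq2 called 712 higher and 643 lower for the endothelial mimic against scrambled miRNA, where edgeR called 0, so these counts of calls also depend on the tool.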
